A study of Mus musculus with 12 samples.

Results

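The 10 genes described here run or restrain the passage of a cell from rest through the G1 phase: the D cyclins Ccnd2 and Ccnd3, the E cyclins Ccne1 and Ccne2, the kinases Cdk2, Cdk4 and Cdk6, the kinase inhibitor Cdkn1b (p27), the ubiquitin ligase subunit Skp2 and the retinoblastoma gene Rb1. They were chosen by name, as the 10 of 37991 genes in the count table whose Ensembl identifiers map to these symbols, and all 10 were among the 13538 genes with enough counts to be tested. RNA came from B cells of the spleens of mice aged 8 weeks (C57B6 in the study's account of B cell isolation), taken at rest (0 h) or after 3 h in culture with anti-IgM, which engages the B cell receptor, and the cytokine IL-4. Every mouse carried the CD23-iCre transgene, which is first expressed at the transitional stage of B cell development. In Runx1 c-k/o mice exon 4 of both Runx1 alleles was floxed and so deleted from that stage on, and Cre-only mice, the controls, carried the transgene alone. Each of the 4 combinations of genotype and time had 3 biological replicates. Whether a replicate pooled animals was not stated in the sources used here, so p-values measure the spread between these samples. The cells had been enriched by depleting other cell types and activated CD43+ B cells.

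A resting cell enters the cycle when D cyclins accumulate and bind CDK4 or CDK6, and these complexes begin to phosphorylate the retinoblastoma protein, which otherwise holds E2F transcription factors in check. Cyclin E with CDK2 carries the phosphorylation further. p27 binds and inhibits cyclin E-CDK2 and is marked for destruction by the SCF ligase that contains SKP2. Mature B cells use cyclin D2 and cyclin D3, and engagement of the B cell receptor is known to induce cyclin D2.

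The bases just upstream of 3 of these genes are shown because Ccnd2 and Cdkn1b were the members that rose and fell most with activation, and because Cdk4, which also rose, had an unusual number of E-boxes. Each run is the 250 bases before the annotated start, in the NCBIM37 (mm9) assembly, 5′ to 3′ on the strand of the gene. Capitals mark matches to an E-box (CACGTG, the site bound by MYC and related factors) or to a RUNX motif (TGTGGT, or ACCACA on the other strand).
Ccnd2, chr6:127101067-127101316, minus strand: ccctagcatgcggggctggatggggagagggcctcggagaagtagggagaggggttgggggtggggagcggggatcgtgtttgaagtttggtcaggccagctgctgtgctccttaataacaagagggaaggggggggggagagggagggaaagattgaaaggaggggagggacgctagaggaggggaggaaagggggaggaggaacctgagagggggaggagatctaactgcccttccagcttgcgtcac
Cdk4, chr10:126500340-126500589, plus strand: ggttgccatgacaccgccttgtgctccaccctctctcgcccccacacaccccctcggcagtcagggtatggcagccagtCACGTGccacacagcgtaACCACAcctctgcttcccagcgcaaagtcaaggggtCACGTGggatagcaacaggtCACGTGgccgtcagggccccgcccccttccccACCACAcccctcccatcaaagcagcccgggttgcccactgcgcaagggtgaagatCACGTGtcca
Cdkn1b, chr6:134870169-134870418, plus strand: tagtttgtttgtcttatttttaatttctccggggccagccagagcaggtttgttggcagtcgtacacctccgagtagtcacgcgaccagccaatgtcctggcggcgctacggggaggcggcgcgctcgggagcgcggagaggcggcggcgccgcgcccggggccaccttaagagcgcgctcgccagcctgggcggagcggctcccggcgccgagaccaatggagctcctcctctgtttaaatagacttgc

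The Cdk4 run held 4 E-boxes, which begin 171, 117, 97 and 10 bases before the start, and 2 RUNX motifs, 153 and 65 bases before it. Of 22367 mouse promoters of the same length, 6.60% held at least 1 E-box and 12.7% a RUNX motif. Only 4 promoters, or 0.0179%, held 4 or more E-boxes. The Ccnd2 and Cdkn1b runs held no match to any motif searched. Besides the E-box and RUNX letters, these were E2F (TTTCCCGC, TTTCGCGC, TTTGCCGC or TTTGGCGC, in 2.20% of promoters), FOXO (GTAAACA, 2.63%), AP-1 (TGACTCA, 3.80%) and STAT6 (TTC and GAA separated by 4 bases, 5.51%), each on either strand. Among the other members, Ccne2 had a RUNX motif 241 bases before its start and Cdk2 an E2F motif at 140 bases. These are matches of letters and not measured sites of binding. The study reported RUNX1 binding at the Ccnd2 promoter and at distal elements of that gene. A run without a match therefore does not show that binding is absent.

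Library totals ranged from 14442251 to 23641552 counts. Levels are given as normalized CPM, which are counts scaled to a common library size with TMM factors. The most thinly counted member was Ccne1, with 21 to 38 counts in each Cre-only sample at 3 h. The summed level of 9 B cell markers was 14952 to 31964 CPM over the 12 samples, against 4.25 to 21.3 CPM for 9 T and NK cell markers. Markers of other cells were higher than those of T and NK cells. At rest, myeloid markers summed to 256 to 310 CPM in Cre-only and 223 to 428 CPM in Runx1 c-k/o samples. Erythroid markers at rest summed to 36.3 to 254 CPM in Cre-only and 246 to 410 CPM in Runx1 c-k/o samples. The deletion check gave Runx1 at 83.6, 81.8 and 86.7 CPM in resting Cre-only cells and at 101.5, 95.7 and 102.7 CPM in resting Runx1 c-k/o cells. Counts over the whole gene do not separate exon 4, so these values do not check the deletion. The Runx1 c-k/o samples rest replicate 2 and 3 h replicate 1 stood apart from their groups, with correlations to the other samples of the group of at most 0.987 and 0.983, against 0.995 and more within the Cre-only groups. Several members took their extreme values in these 2 samples, as described with each gene, and results that rest on them are given with and without them.

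The main pattern over the 10 genes was the difference between the times. Activation means this comparison of 3 h with rest, in which cells differed in time spent in culture as well as in stimulus. No unstimulated culture was sampled, so the share of each change that is due to the stimulus was not tested. In Cre-only cells Ccnd2, Cdk4, Cdk6 and Skp2 were higher at 3 h than at rest. Cdkn1b, Ccnd3, Ccne1, Ccne2, Rb1 and Cdk2 were lower, so that all 10 passed the test (edgeR quasi-likelihood test, Benjamini-Hochberg adjusted p under 0.05). Of all 13538 genes 75.0% passed in this comparison, 38.6% as higher and 36.4% as lower, so a call in itself does not set the members apart. In Runx1 c-k/o cells 9 of the 10 passed, with the same direction for each, against 74.3% of all genes, of which 37.7% were higher and 36.6% lower. The 3 samples of each time did not overlap for 10 members in Cre-only cells and for 9 in Runx1 c-k/o cells, against 84.4% and 72.8% of all genes. The members' median log2 fold change was -0.45 for Cre-only cells and -0.36 for Runx1 c-k/o cells, beside 0.03 and 0.00 over all genes. In bulk RNA a change in the share of cells that express a gene and a change in the RNA of each cell cannot be told apart. Rises and falls here are relative to the rest of each library. The study added ERCC spike-in RNA to the lysates, but the count table held 0 spike-in rows. Changes in the amount of RNA per cell could therefore not be measured, which matters most for the small falls of Cdk2, Rb1 and Ccne2.

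**Figure D1:**
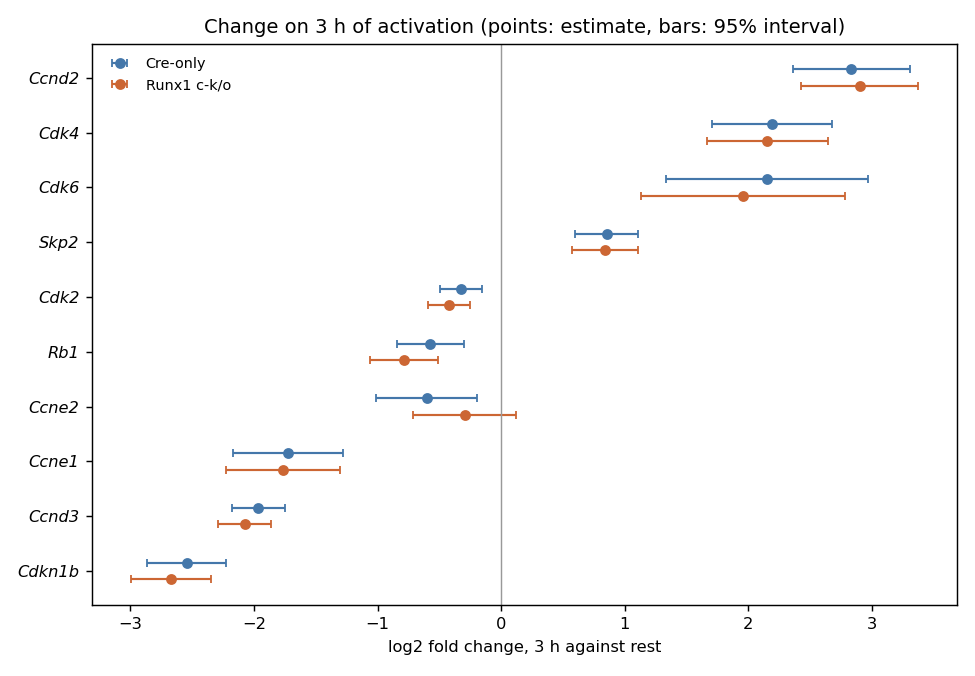
Log2 fold change from rest to 3 h of activation (x axis) for each of the 10 genes (y axis), in Cre-only cells (blue) and Runx1 c-k/o cells (orange). Points are estimates from the fit over 12 samples and bars are 95% intervals. Ccnd2, Cdk4, Cdk6 and Skp2 lie to the right of 0 in both genotypes, and only the interval of Ccne2 in Runx1 c-k/o cells crosses 0.

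Among the D cyclins, Ccnd2 (chr6:127075797-127101066, minus strand, 5 exons), the cyclin known to follow B cell receptor signals, stood at 113, 101 and 101 CPM in the resting Cre-only samples and at 726, 793 and 727 CPM after 3 h. The Runx1 c-k/o samples stood at 112, 182 and 104 CPM at rest and at 778, 965 and 1222 CPM at 3 h. The highest resting value belonged to replicate 2, which stood apart, and the times did not overlap in either genotype. Ccnd2 rose 7.13-fold in Cre-only cells (log2 2.83 ± 0.22, SE, n = 3, edgeR adjusted p = 2.00e-07) and 7.47-fold in Runx1 c-k/o cells (log2 2.90 ± 0.22, adjusted p = 2.08e-07).

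Ccnd3 (chr17:47642000-47736632, plus strand), the other D cyclin of mature B cells, moved the opposite way. It stood at 54.8, 52.4 and 49.9 CPM in resting Cre-only cells and at 13.6, 12.7 and 13.9 CPM at 3 h. The Runx1 c-k/o values were 50.5, 55.3 and 50.8 CPM at rest and 11.97, 13.98 and 11.2 CPM at 3 h. The replicates were tight in all 4 groups, and the fall was 3.90-fold in Cre-only cells (log2 -1.96 ± 0.10, SE, edgeR adjusted p = 1.59e-08) and 4.22-fold in Runx1 c-k/o cells (log2 -2.08 ± 0.10, adjusted p = 2.11e-08). An exon of Bysl on the opposite strand overlaps Ccnd3, and Bysl rose with activation (log2 2.60 in Cre-only cells). Reads from both could not be assigned with certainty, since the strand setting of the counting was not stated.

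Per kilobase of exon, the D cyclin reads changed hands. The length used was that of all annotated exons of a gene merged, so comparisons between genes depend on the annotation. Ccnd2 made up 43.2%, 41.7% and 42.5% of the reads per kilobase from Ccnd1, Ccnd2 and Ccnd3 in resting Cre-only cells and 95.3%, 95.9% and 95.3% at 3 h. Its share in Runx1 c-k/o cells was 45.0%, 54.7% and 43.2% at rest and 96.1%, 96.3% and 97.6% at 3 h. The share of Ccnd3 fell from 53.5% ± 0.92 (SD, n = 3) to 4.34% ± 0.38 in Cre-only cells. Ccnd1, a D cyclin scarce in lymphocytes, held 4.00% ± 0.46 at rest and 0.166% ± 0.036 at 3 h. The ratio of Ccnd2 to Ccnd3 counts within a sample needs no library scaling, and it rose 27.8-fold in Cre-only cells (log2 4.80) and 32.1-fold in Runx1 c-k/o cells. The groups did not overlap in either genotype. The exact permutation test gave p = 0.1 for each (adjusted p = 0.133), the smallest that 3 samples against 3 allow.

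**Figure D2:**
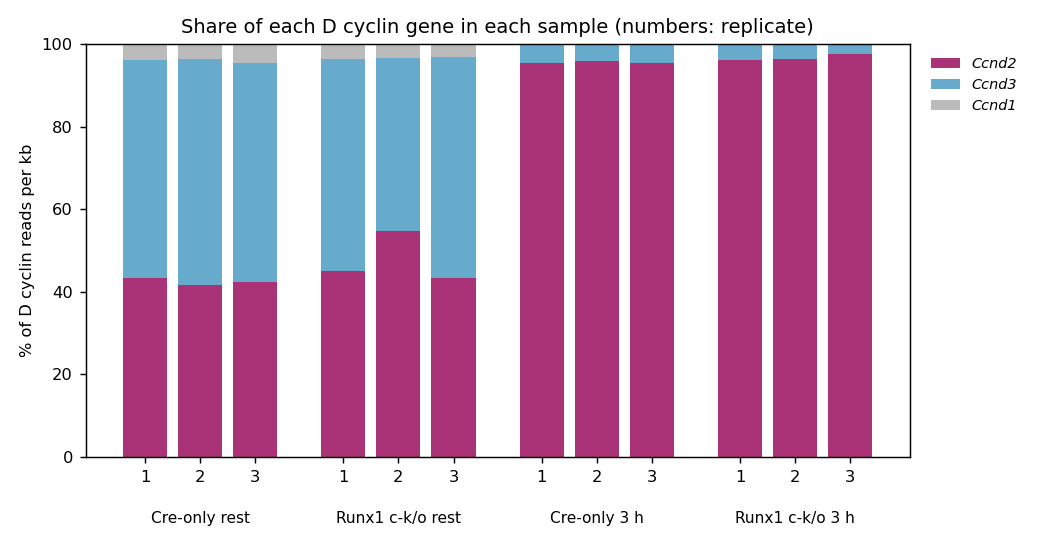
Share of Ccnd2, Ccnd3 and Ccnd1 in the D cyclin reads per kilobase of exon (y axis, %), 1 bar per sample with its replicate number (x axis). Ccnd2 takes 41.7% to 54.7% of the reads at rest and 95.3% to 97.6% at 3 h, and the highest resting bar is Runx1 c-k/o replicate 2.

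The partner kinases of the D cyclins rose with Ccnd2. Cdk4 (chr10:126500590-126504976, plus strand) stood at 84.2, 82.7 and 77.0 CPM in resting Cre-only cells and at 367, 369 and 377 CPM at 3 h. With Runx1 deleted it stood at 73.0, 141 and 80.6 CPM at rest and at 549, 374 and 389 CPM at 3 h. The values of 141 and 549 CPM were those of the samples that stood apart, and each was the highest of its group. Cdk4 rose 4.56-fold in Cre-only cells (log2 2.19 ± 0.22, SE, edgeR adjusted p = 2.28e-06) and 4.45-fold in Runx1 c-k/o cells (log2 2.15 ± 0.22, adjusted p = 2.80e-06). With a factor of unwanted variation estimated from the replicates (RUVs, edgeR) the rises were smaller, at 1.40 and 1.36 on the log2 scale, and still passed. Tspan31 overlaps an exon of Cdk4 on the opposite strand and was at 11.7 to 14.6 CPM in group means.

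Cdk6 (chr5:3343893-3523218, plus strand) was at 23.5, 23.1 and 22.7 CPM in resting Cre-only cells and at 104, 103 and 101 CPM at 3 h. Its Runx1 c-k/o levels were 23.8, 12.7 and 23.6 CPM at rest and 30.3, 85.7 and 118 CPM at 3 h. The same 2 samples that were highest for Cdk4 were lowest for Cdk6, and the spread at 3 h was 56.8% of the mean (CV), the widest of any member in any group. Cdk6 rose 4.44-fold in Cre-only cells (log2 2.15 ± 0.38, SE, edgeR adjusted p = 0.000216) and 3.88-fold in Runx1 c-k/o cells (log2 1.96 ± 0.38, adjusted p = 0.000485). Without both samples that stood apart, a choice made after seeing the data, the rise in Runx1 c-k/o cells was 2.07 on the log2 scale. With a RUVs factor the Cdk6 rises were larger, at 3.89 in Cre-only cells and 3.63 with Runx1 deleted.

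Cdk2 (chr10:128134995-128142107, minus strand), the partner of cyclin E, changed least among the members called in both genotypes. Its levels were 50.3 to 52.6 CPM in resting Cre-only cells and 38.4 to 44.4 CPM at 3 h, and 53.5 to 56.7 and 40.8 to 42.3 CPM in Runx1 c-k/o cells. It fell 1.25-fold in Cre-only cells (log2 -0.33 ± 0.08, SE, edgeR adjusted p = 0.00222) and 1.34-fold in Runx1 c-k/o cells (log2 -0.42 ± 0.08, adjusted p = 0.000346).

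The E cyclins were scarce and fell. Ccne1 (chr7:38883003-38892553, minus strand) was at 5.54, 6.66 and 4.90 CPM in resting Cre-only cells and at 1.64, 1.37 and 2.17 CPM at 3 h. Its Runx1 c-k/o values were 5.39, 4.59 and 6.11 CPM at rest and 1.61, 1.77 and 1.35 CPM at 3 h, and the times did not overlap. The fall was 3.30-fold in Cre-only cells (log2 -1.72 ± 0.20, SE, edgeR adjusted p = 7.99e-06) and 3.39-fold in Runx1 c-k/o cells (log2 -1.76 ± 0.21, adjusted p = 9.50e-06). Ccne2 (chr4:11118498-11131926, plus strand) was at 7.95, 10.02 and 8.43 CPM in resting Cre-only cells and at 5.65, 5.10 and 6.62 CPM at 3 h. It fell 1.52-fold there (log2 -0.60 ± 0.19, adjusted p = 0.0112), and this call was lost without Cre-only rest replicate 2 (log2 -0.49, adjusted p = 0.0537) or without Cre-only 3 h replicate 2 (log2 -0.51, adjusted p = 0.0503).

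Ccne2 in Runx1 c-k/o cells stood at 8.61, 5.82 and 6.84 CPM at rest and at 6.57, 4.46 and 6.30 CPM at 3 h. The times overlapped, and the difference of -0.30 on the log2 scale (95% interval -0.71 to 0.12) did not pass the test (edgeR adjusted p = 0.181). The 2 genotypes are not thereby shown to differ for Ccne2, since the interaction was 0.31 on the log2 scale with an adjusted p of 0.999. An exon of Ints8 on the opposite strand overlaps Ccne2, and Ints8 stood at 43.7 to 64.6 CPM in group means, well above Ccne2.

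Of the brakes, Cdkn1b (chr6:134870419-134875531, plus strand), which encodes p27, showed the largest fall of the 10 genes in both genotypes. It was at 215, 217 and 220.1 CPM in resting Cre-only cells and at 38.2, 36.2 and 37.2 CPM at 3 h. Runx1 c-k/o cells had levels of 237, 192 and 224 CPM at rest and 26.5, 42.8 and 33.5 CPM at 3 h. The lowest Runx1 c-k/o value at each time was that of the sample that stood apart. The fall was 5.84-fold in Cre-only cells (log2 -2.55 ± 0.15, SE, edgeR adjusted p = 3.01e-08) and 6.36-fold in Runx1 c-k/o cells (log2 -2.67 ± 0.15, adjusted p = 3.69e-08).

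Skp2 (chr15:9041742-9070207, minus strand), the subunit that brings p27 to the SCF ligase, rose while Cdkn1b fell. Its levels were 3.95, 4.27 and 4.65 CPM in resting Cre-only cells and 8.03, 7.25 and 7.90 CPM at 3 h. Runx1 c-k/o cells had 3.87, 3.81 and 3.78 CPM at rest and 6.89, 6.82 and 6.83 CPM at 3 h. The rise was 1.81-fold in Cre-only cells (log2 0.85 ± 0.12, SE, edgeR adjusted p = 2.92e-05) and 1.79-fold in Runx1 c-k/o cells (log2 0.84 ± 0.12, adjusted p = 4.50e-05). The ratio of Skp2 to Cdkn1b counts within a sample rose 10.5-fold in Cre-only cells and 11.6-fold with Runx1 deleted, with no overlap between times (exact permutation p = 0.1, adjusted p = 0.2 for each).

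Rb1 (chr14:73583480-73725629, minus strand) was at 152, 147 and 146 CPM in resting Cre-only cells and at 98.6, 101 and 99.6 CPM at 3 h. In Runx1 c-k/o cells it was at 139, 123 and 145 CPM at rest and at 60.9, 82.6 and 91.9 CPM at 3 h. The lowest value at each time in these cells belonged to the sample that stood apart. Rb1 fell 1.49-fold in Cre-only cells (log2 -0.57 ± 0.13, SE, edgeR adjusted p = 0.00119) and 1.73-fold in Runx1 c-k/o cells (log2 -0.79 ± 0.13, adjusted p = 0.000111). With a RUVs factor the Cre-only fall was no longer called (log2 -0.09, adjusted p = 0.475 with edgeR, and log2 -0.20, adjusted p = 0.103 with DESeq2). Lpar6 and Rcbtb2, which lie on the opposite strand and overlap exons of Rb1, were each at or below 15.3 CPM in every group mean.

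**Figure D3:**
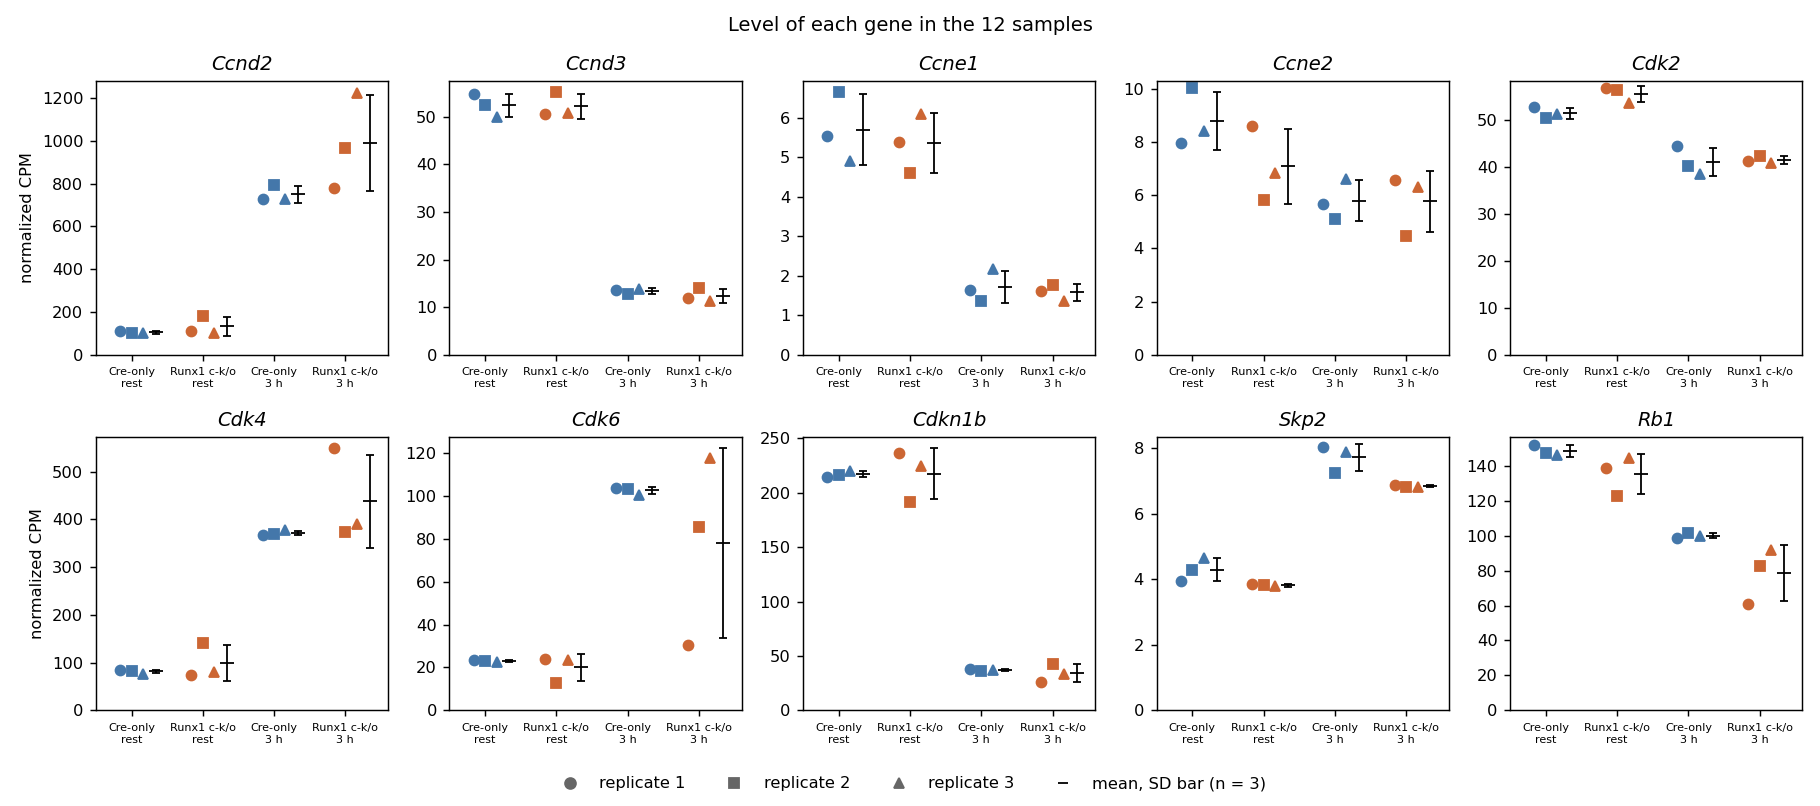
Normalized CPM (y axis, from 0, a scale of its own in each panel) of the 10 genes in the 12 samples, by genotype and time (x axis). Symbols are replicates and black marks the mean with its SD (n = 3). The Cre-only replicates cluster tightly, while Runx1 c-k/o rest replicate 2 (square) and 3 h replicate 1 (circle) lie away from their groups for Cdk4 and Cdk6, at 141 and 549 CPM and at 12.7 and 30.3 CPM.

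Per kilobase of merged exon, and so with the same dependence on the annotation, the order of the genes turned over with activation. In resting Cre-only cells Cdkn1b was highest at 47.7 ± 0.58 CPM per kilobase (SD, n = 3), followed by Cdk4 (25.0) and Rb1 (24.7), whose samples overlapped, and then by Ccnd3 (23.2), Cdk2 (21.1), Ccnd2 (18.4) and Cdk6 (6.18). Ccne2 (2.52) and Ccne1 (2.14) overlapped, and Skp2 (0.692) was lowest. At 3 h Ccnd2 was highest at 131 ± 6.74 CPM per kilobase, followed by Cdk4 (114) and Cdk6 (27.5), and these 3 did not overlap with their neighbours. Cdk2 (16.9) and Rb1 (16.6) overlapped, and Cdkn1b (8.17), Ccnd3 (5.95), Ccne2 (1.66), Skp2 (1.25) and Ccne1 (0.648) followed. In Runx1 c-k/o cells the mean order at 3 h was the same, and at rest Cdkn1b (47.8), Cdk4 (30.2), Ccnd2 (23.2), Ccnd3 (23.1), Cdk2 (22.8) and Rb1 (22.5) followed each other with overlap between neighbours.

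Between the genotypes, the comparison that asks what loss of RUNX1 does to these genes, none of the 10 passed the test at either time. At rest 0 of 10 were called by the edgeR quasi-likelihood test, 0 by DESeq2 and 0 at an unadjusted p under 0.05, against 1.49% of all genes called and 11.1% at an unadjusted p under 0.05. At 3 h 0 of 10 were called by either tool and 1, Rb1, had an unadjusted edgeR p under 0.05, against 2.77% and 16.2% of all genes. Groups did not overlap for 3 members at rest and 2 at 3 h, against 23.7% and 21.8% of all genes. The median log2 difference of the members was -0.05 at rest and -0.12 at 3 h, beside 0.03 and 0.01 over all genes. A p that misses the threshold does not show that levels were equal, and the intervals set the differences that remain possible.

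The narrowest limits were those of Cdk2 and Ccnd3. At rest the difference of Runx1 c-k/o from Cre-only cells was 0.11 for Cdk2 (95% interval -0.06 to 0.28, log2 scale) and -0.00 for Ccnd3 (-0.21 to 0.20). At 3 h it was 0.02 for Cdk2 (-0.16 to 0.19) and -0.12 for Ccnd3 (-0.34 to 0.10). For Cdkn1b it was 0.00 at rest (-0.30 to 0.30) and -0.12 at 3 h (-0.43 to 0.19). The limits were widest for Cdk6, at -1.02 to 0.62 at rest and -1.17 to 0.38 at 3 h, the gene with the largest spread between Runx1 c-k/o replicates at 3 h. Its difference was -0.20 at rest and -0.40 at 3 h, and 0.04 and 0.01 without both samples that stood apart.

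Cdk4, which was highest in both of those samples, differed by 0.27 at rest (95% interval -0.20 to 0.75, log2 scale, edgeR adjusted p = 0.671) and by 0.24 at 3 h (-0.23 to 0.70, adjusted p = 0.574). Without them the difference was -0.08 at rest, with the direction turned, and 0.06 at 3 h, and neither passed. The E cyclins did not pass at either time. Ccne1 differed by -0.09 at rest (-0.49 to 0.31) and -0.13 at 3 h (-0.64 to 0.38). Ccne2 differed by -0.31 at rest (-0.71 to 0.10) and -0.00 at 3 h (-0.42 to 0.42).

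Skp2 was lower in every Runx1 c-k/o sample than in any Cre-only sample at both times, without passing the test. Its Runx1 c-k/o values spanned 3.78 to 3.87 CPM at rest and 6.82 to 6.89 CPM at 3 h, against 3.95 to 4.65 and 7.25 to 8.03 CPM in Cre-only cells. Skp2 had 57 to 66 counts in Runx1 c-k/o samples at rest and 104 to 116 at 3 h, against 75 to 82 and 111 to 186 in Cre-only samples. With so few counts the narrow spans are not a measure of precision. The log2 difference was -0.16 at rest (95% interval -0.43 to 0.11, edgeR adjusted p = 0.69) and -0.18 at 3 h (-0.42 to 0.07, adjusted p = 0.443). Rb1 showed the same arrangement, with log2 differences of -0.13 at rest (-0.41 to 0.14, adjusted p = 0.71) and -0.35 at 3 h (-0.62 to -0.07, adjusted p = 0.202). At 3 h the Rb1 difference passed with a RUVs factor, at -0.27 with edgeR (adjusted p = 0.018) and -0.23 with DESeq2 (adjusted p = 0.00777), and without both samples that stood apart it was -0.17 (adjusted p = 0.0847). Cdk2 was the third member whose groups did not overlap at rest, higher in the 3 Runx1 c-k/o samples.

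Ccnd2 was the member whose genotype difference gained a call without the 2 samples that stood apart. Over all samples it was 0.33 on the log2 scale at rest (95% interval -0.11 to 0.78, edgeR adjusted p = 0.603) and 0.40 at 3 h (-0.04 to 0.84, adjusted p = 0.346). Without both of them, a choice made after the data were seen, the difference was 0.04 at rest (adjusted p = 0.908) and 0.57 at 3 h, which passed (adjusted p = 0.000356). The interaction, the difference between the rises in the genotypes, then went from 0.07 (adjusted p = 0.999) to 0.53 (adjusted p = 0.0428). In that fit the groups affected hold 2 samples each, 965 and 1222 CPM at 3 h, and leaving out any single sample did not bring Ccnd2 past the threshold. The ratio of Ccnd2 to Ccnd3 was higher in Runx1 c-k/o cells at 3 h by 0.50 on the log2 scale, with no overlap (exact permutation p = 0.1, adjusted p = 0.133), and by 0.29 at rest, with overlap (p = 0.2).

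**Figure D4:**
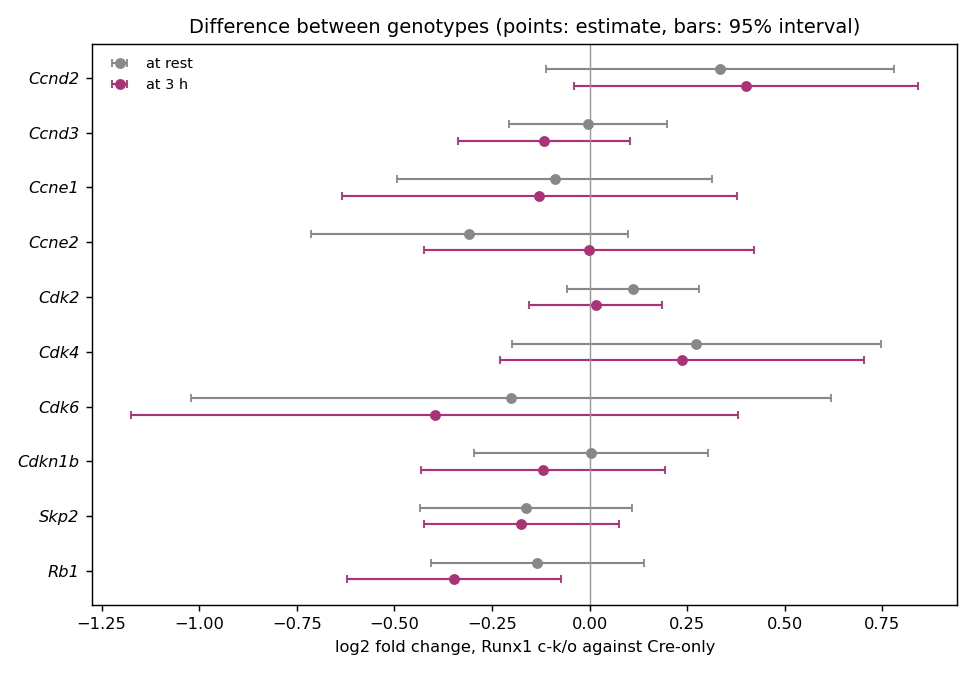
Log2 difference of Runx1 c-k/o from Cre-only cells (x axis) for each of the 10 genes (y axis), at rest (grey) and at 3 h (purple). Points are estimates and bars are 95% intervals from the fit over 12 samples. All intervals at rest cross 0, and at 3 h only that of Rb1, at -0.62 to -0.07, lies on 1 side before adjustment over all genes.

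The test of the difference itself, whether activation moved a gene by the same amount in both genotypes, called 0 of 10 members by edgeR (adjusted p = 0.999 for each) and 0 by DESeq2, and 0 had an unadjusted edgeR p under 0.05. Over all genes 0.0813% were called. The estimates ran from -0.21 (Rb1) to 0.31 (Ccne2) on the log2 scale.

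Other genes of the G1 machinery were called about as often as genes at large. Of 42 tested regulators outside the 10, chosen by name, 21 rose and 12 fell in Cre-only cells, and 23 rose and 11 fell in Runx1 c-k/o cells, beside the 75.0% and 74.3% of all genes called. The list median was 0.28 and 0.34 on the log2 scale, beside 0.03 and 0.00 for all genes. Among the brakes, Rbl2, a retinoblastoma relative, fell from 85.4 ± 1.17 to 23.1 ± 3.67 CPM in Cre-only cells (SD, n = 3, edgeR adjusted p = 1.44e-06), and Cdkn2d, an inhibitor of CDK4 and CDK6, fell from 2.92 ± 0.036 to 0.236 ± 0.097 CPM (adjusted p = 4.44e-07). Other regulators went the other way. Wee1, a kinase that inhibits CDKs, rose from 7.41 ± 0.51 to 35.2 ± 0.58 CPM (adjusted p = 1.02e-07). Cdc25b, a phosphatase that activates CDKs, fell from 105 ± 2.56 to 6.17 ± 0.22 CPM (adjusted p = 8.79e-08). Of the E2F factors and their partners, E2f2 fell from 80.6 ± 7.77 to 4.52 ± 1.41 CPM (adjusted p = 3.43e-08), while E2f6, a repressor of the family, rose from 6.05 ± 0.46 to 30.8 ± 1.007 CPM (adjusted p = 1.63e-07) and Tfdp1, the dimer partner of E2F proteins, rose from 32.7 ± 1.06 to 138 ± 5.49 CPM (adjusted p = 4.90e-08). Cdk7, a kinase that activates other CDKs, rose from 28.5 ± 2.51 to 74.0 ± 1.71 CPM (adjusted p = 2.58e-07).

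**Figure D5:**
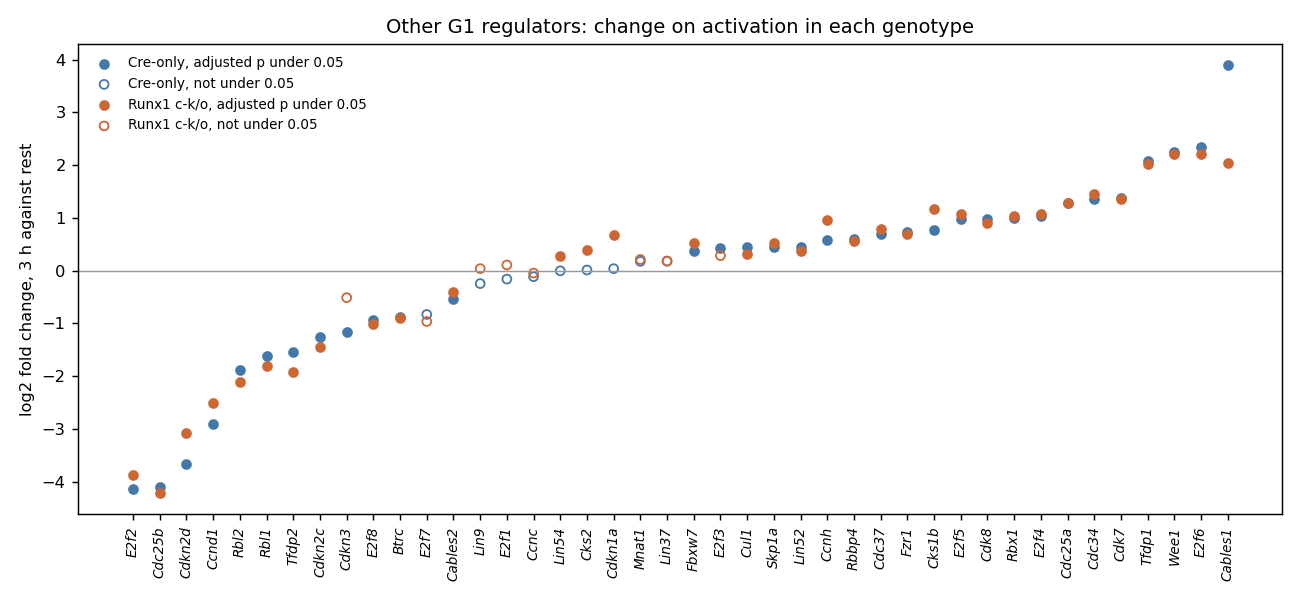
Log2 fold change from rest to 3 h (y axis) of the 42 tested G1 regulators outside the 10 members (x axis, ordered by the Cre-only change), in Cre-only cells (blue) and Runx1 c-k/o cells (orange). Filled points passed the edgeR test. The widest gap between the genotypes is that of Cables1, at 3.89 (Cre-only) and 2.04 (Runx1 c-k/o).

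Of these 42 regulators, 0 were called between genotypes at rest, beside 1.49% of all genes, and 1 at 3 h, beside 2.77%. That 1 gene was Cables1, which encodes a CDK-binding adaptor. It stood at 0.703 ± 0.18 CPM in resting Cre-only cells and 10.5 ± 0.99 CPM at 3 h, and at 0.332 and 1.40 ± 0.11 CPM in Runx1 c-k/o cells. At 3 h the difference was -2.90 ± 0.19 on the log2 scale (SE, edgeR adjusted p = 1.30e-05). Its interaction of -1.85 did not pass (adjusted p = 0.201). Without both samples that stood apart, the Cables1 difference was -2.82, and 4 regulators of the list were called higher and 1 lower at 3 h, where 4.11% of all genes were called higher and 2.54% lower.

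The E2F targets, genes for DNA replication that follow the release of E2F from the retinoblastoma protein, did not move as a block at 3 h. Of 25 tested, 8 rose and 9 fell in Cre-only cells, and 9 rose and 8 fell in Runx1 c-k/o cells, beside 75.0% and 74.3% of all genes called, with medians of 0.01 and -0.09 on the log2 scale. Between genotypes 0 of 25 were called at either time by edgeR, beside 1.49% of all genes at rest and 2.77% at 3 h, with medians of -0.23 at rest and -0.11 at 3 h, and without both samples that stood apart 7 were called lower at rest, where 2.26% of all genes were. A list of 12 genes of mitosis and proliferation was lower in Runx1 c-k/o cells for 2 genes at rest and 4 at 3 h, and higher for 0 at either time, against the same 1.49% and 2.77% of all genes called in either direction. Its summed level was 182 to 227 CPM in resting Cre-only samples against 126 to 144 CPM in Runx1 c-k/o samples, and 127 to 154 against 79.8 to 98.1 CPM at 3 h. Whether these lower levels bear on the values of the 10 members was not tested.

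Among 20 tested genes whose products are known to act on D cyclin genes, 8 rose and 10 fell with activation in each genotype, beside the 75.0% and 74.3% of all genes called. Stat5a, a transcription factor of cytokine signalling, rose from 45.1 ± 1.21 to 377 ± 16.3 CPM in Cre-only cells (SD, n = 3, edgeR adjusted p = 2.60e-08). Foxo1, an activator of Cdkn1b, fell from 382 ± 25.0 to 91.9 ± 3.27 CPM (adjusted p = 4.16e-08), and Foxo3 fell from 97.0 ± 2.78 to 32.9 ± 0.44 CPM (adjusted p = 3.79e-08). Bcl6, a repressor of Ccnd2, fell from 126 ± 6.40 to 31.1 ± 2.07 CPM (adjusted p = 6.97e-08).

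Between genotypes Egr2, an immediate early factor, was higher in resting Runx1 c-k/o cells, at 109 ± 53.5 against 44.6 ± 2.12 CPM (log2 1.29 ± 0.25, SE, edgeR adjusted p = 0.0222). Without both samples that stood apart the Egr2 difference was 0.81 (adjusted p = 4.16e-07). At 3 h the transcripts of Runx1 (log2 0.80 ± 0.14, adjusted p = 0.00769), Atf3 (0.86 ± 0.17, adjusted p = 0.0174) and the AP-1 subunit Fosl2 (1.14 ± 0.25, adjusted p = 0.0313) were higher in Runx1 c-k/o cells. Leaving out those 2 samples gave 1.00 for Runx1, 1.25 for Fosl2 and 0.79 for Atf3, which then did not pass (adjusted p = 0.0551). In that setting 9 of 21 genes tested were called higher and 1 lower at 3 h, beside 4.11% and 2.54% of all genes. The list was chosen with earlier results of these data known. It includes Runx1, the targeted gene, and genes that the study had reported as raised in Runx1 c-k/o cells. These counts are therefore a description and not a test of the list.

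The genes whose levels over the 12 samples were most like Ccnd2, by Pearson correlation of log2 normalized CPM, were B4galt5 (r = 0.997), Rbpj (0.996), Nfkb1 (0.996), Rragd (0.995) and Zfp202 (0.995). For Cdkn1b they were 1700021K19Rik, Phf21a, Map4k2, Myo18a and Lrch1, with r from 0.9992 to 0.9996. These correlations are a description, since the 12 points fall into 2 clusters by time, and most genes changed between them.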

How the data were processed

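The authors sequenced stranded poly(A) libraries from paired ends, aligned the reads to mm9 with TopHat2 2.0.11, assigned them to Ensembl genes by featureCounts and deposited raw counts for each gene in each sample. The strand setting of the counting is not given in the sources used here. Counts were filtered with filterByExpr (a minimum of 10), scaled with TMM and tested with the edgeR 4.0.16 quasi-likelihood test over all 13538 tested genes and 12 samples, with Benjamini-Hochberg adjustment and a threshold of 0.05. Standard errors and 95% intervals were derived from its F statistics. The authors tested with DESeq2 and factors of unwanted variation. DESeq2 1.42.0, with and without 1 RUVs factor, and other settings were tried as alternatives, and the code was tested on simulated data. A floor of 3 counts lay at 0.127 to 0.208 CPM, and such floors cover counting error only. Exon lengths and positions came from the GENCODE annotation of NCBIM37. Promoters were read from that genome.

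The members and gene lists were chosen with earlier results of these data known. All members were eligible in every comparison. From the lists of G1 regulators and of regulators of D cyclin genes, those called with no overlap between groups were ranked by adjusted p in each comparison, and of the first 5 in each direction some are named. The 5 genes most like Ccnd2 and Cdkn1b by correlation are named too. The lists checked were G1 regulators, E2F targets, mitotic genes, regulators of D cyclin genes, and markers of B, T and NK, myeloid, plasma and erythroid cells. The summed level of 10 myeloid markers was 223 to 428 CPM at rest and 24.5 to 52.6 CPM at 3 h, that of 6 plasma cell markers 1541 to 2390 CPM, and that of 5 erythroid markers 12.5 to 410.2 CPM. Ighd was not matched. Of 10 activation genes, 6 rose and 3 fell in Cre-only cells, beside 38.6% and 36.4% of all genes. In Runx1 c-k/o cells 5 rose and 2 fell, beside 37.7% and 36.6% of all genes.

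Replicate numbers paired rest and 3 h samples in Cre-only cells, where deviations from the group means of same-numbered samples correlated at 0.309, 0.211 and 0.175, all over 0.1. In Runx1 c-k/o cells they did not (-0.324, -0.316 and 0.33), and each sample there correlated best with a sample of another number.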

Additional observations from a re-analysis of the deposited data

How the results depend on the processing

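Over 1070 results for single members under the alternatives planned, 1063 kept their direction or stayed uncalled on the same side of the threshold, 5 lost a call, 2 gained one and 0 were reversed. The 2 gained were Rb1 at 3 h with a RUVs factor (log2 -0.27 with edgeR and -0.23 with DESeq2), which made the count of members called at 3 h 1 with either tool. The 5 lost were Rb1 and Ccne2 with activation in Cre-only cells, with a RUVs factor (Rb1 in both tools, Ccne2 with edgeR at log2 -0.69, adjusted p = 0.0606) or without replicate 2 of either time (Ccne2). With a RUVs factor the Cre-only rise was 1.40 (edgeR) and 1.29 (DESeq2) for Cdk4 and 3.89 and 3.78 for Cdk6, on the log2 scale. The cause was not tested. TMM called 5229 genes higher and 4930 lower in the Cre-only activation comparison, library totals 4719 and 5406. At 3 h between genotypes the split was 199 and 176 with TMM and 238 and 150.0 with DESeq2 size factors. Without both samples that stood apart, chosen after seeing the data, members called numbered 0 at rest, 1 at 3 h, 10 and 10 with activation and 1 in the interaction. Of all genes 4.35%, 6.65%, 81.6%, 76.6% and 1.36% were called in that setting, in the same order. Ccne2 joined the activation calls of the Runx1 c-k/o genotype (log2 -0.55, edgeR adjusted p = 0.0197).

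Counts over all genes depended more on the setting. The 202 genes called at rest became 378 with DESeq2, 524 and 611 with a RUVs factor in edgeR and DESeq2, and 598 without both samples that stood apart. The 375 at 3 h became 709, 1036, 1230 and 914 in the same order, and 158 with only the 2 groups compared in the fit. The 11 of the interaction became 83, 142, 253 and 187. With a replicate block within genotype the interaction called 4 genes, and activation called 9736 genes in Cre-only cells and 9601 with Runx1 deleted. With the number as a block over all samples 140 genes were called at rest and 275 at 3 h. In Runx1 c-k/o cells no sample correlated best with its own number. The highest correlation of deviations, 0.551, joined rest replicate 2 and 3 h replicate 1, the samples that stood apart. Rest replicate 3 correlated best with 3 h replicate 2 (0.362), and rest replicate 1 with 3 h replicate 3 (0.331). Neither block changed the call of a member, and the Ccnd2 to Ccnd3 ratio difference at 3 h from same-numbered pairs was 0.50. Leaving out 1 sample at a time gave 81 to 386 genes at rest, 180.0 to 617 at 3 h, 9628 to 10856 and 9472 to 10203 with activation and 4 to 31 in the interaction, with 0 members called between genotypes or in the interaction, 9 to 10 with activation in Cre-only cells and 9 with Runx1 deleted. The difference in the Ccnd2 to Ccnd3 ratio then ranged from 0.08 to 0.43 at rest, 0.26 to 0.64 at 3 h, 4.72 to 4.85 in Cre-only cells and 4.77 to 5.21 in Runx1 c-k/o cells, and that in the Skp2 to Cdkn1b ratio from -0.25 to -0.11, -0.20 to 0.15, 3.35 to 3.45 and 3.36 to 3.71. With 3 samples a group, Cdk6 between genotypes could be bounded only to within -1.17 and 0.38 at 3 h, and Ccne1 rested on as few as 21 counts.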
